A study of Mus musculus with 9 samples.

Results

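The mammalian circadian clock is driven by a pair of activators. BMAL1, the product of Arntl, binds DNA only together with CLOCK or its forebrain relative NPAS2, and the pair switches on the genes of their own repressors, the Period and Cryptochrome proteins. Arntl is itself switched on by the nuclear receptor RORα, the product of Rora, which competes with the REV-ERB repressors for the same short DNA element. How long the repressors last is set after translation: casein kinase 1ε, the product of Csnk1e, phosphorylates the Period proteins, and the F-box protein FBXL21 takes part in the ubiquitination of Cryptochromes. The genes described here are these 6, taken by symbol from the platform annotation as probe sets named for that gene alone, and each of the 6 had 1 such probe set among the 22180 genes measured.

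RNA of microdissected anterior cingulate cortex from C57BL/6J mice, an inbred laboratory strain, was hybridised to 9 arrays, 3 per group, and the titles call the replicates biological. Ketamine mice received 3 mg/kg of this NMDA receptor blocker intraperitoneally at ZT5, that is 5 h after the start of the light phase, and were killed 8 h later. Sleep-deprived mice were held awake over the 12 h from ZT0 to ZT12 with a slowly turning bar in the cage, with no injection in their labels, and saline mice were injected with saline at ZT5. All 3 groups were killed at ZT13, which for the sleep-deprived mice is 1 h after the end of deprivation. Each group is a single time point, so a difference in the level of a cycling gene and a shift of its phase cannot be told apart. Injection and wakefulness cannot be told apart in any comparison with the sleep-deprived mice. The sample numbers of the series run group by group, so an array order that followed them cannot be told apart from group either. Age is not given in the labels.

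The tissue carried the markers of its label. Of 8 markers of cortical excitatory neurons 7 were measured, and their summed intensity was 12066 to 12431 in ketamine arrays, 11826 to 12755 in sleep-deprived arrays and 12030 to 12433 in saline arrays. Of 7 striatal markers 4 were measured. Drd1, Drd2, Gpr6 and Rgs9 were at the 48.2nd, 37.6th, 52.1st and 73.1st percentile of all genes. Of 7 choroid plexus markers 6 were measured, and their sum was at most 1000.4 in ketamine and 992.5 in sleep-deprived arrays. It was 2163, 9456 and 614 in saline arrays 1 to 3, so that saline arrays 1 and 2 stood above all others. Most of these 2 sums was Ttr, at 1624 and 8428, while Kl was at 133 and 587. Folr1, Clic6, Kcne2 and Otx2 were at most 149 in any array. The part of these choroid plexus values in the comparisons with saline was not tested. No marker of the 9 cell type lists was listed at 0. In bulk tissue, fewer cells of a type and less RNA per cell cannot be told apart.

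The promoter of Arntl carries the elements on which RORα and the REV-ERB proteins act. RefSeq places 2 start-site windows for Arntl on chromosome 7 of build GRCm38.p6, each running from 250 bases before to 50 bases after a start site. The downstream window, at chr7:113207261-113207560 on the plus strand, is shown because it holds 2 copies of the ROR element core AGTAGGTNA, which are in capitals.

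Arntl promoter: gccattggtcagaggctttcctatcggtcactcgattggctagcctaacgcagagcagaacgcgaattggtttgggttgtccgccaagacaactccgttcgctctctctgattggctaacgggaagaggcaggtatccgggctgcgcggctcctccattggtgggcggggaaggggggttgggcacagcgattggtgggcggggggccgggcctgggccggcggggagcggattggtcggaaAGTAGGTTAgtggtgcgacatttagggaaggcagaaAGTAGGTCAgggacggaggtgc

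The elements are set side by side here with 5 bases on each side. The upstream copy lies at chr7:113207498-113207516 with its core starting 8 bases before the start site, and the downstream copy at chr7:113207534-113207552 with its core starting at base 29 after it.
Upstream element: cggaaAGTAGGTTAgtggt
Downstream element: cagaaAGTAGGTCAgggac

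Among 32851 promoter windows of the same length, 0.591% held this core on either strand and 3 windows, of 3 genes, held 2 or more. The core was chosen with the known Arntl elements in view, so its presence there is a description. The other letters searched on both strands were the E-box CACGTG, the variant CACGTT, the D-box TTANNTAA, the cAMP response element TGACGTCA, the ROR hexamer AGGTCA and CCAAT. The hexamer overlaps the downstream core. The 12 windows of the 6 genes held 0 E-boxes, where 7.15% of all windows had one, and likewise 0 of CACGTT (4.68%), 0 D-boxes (6.0%) and 0 cAMP response elements (1.79%). AGGTCA was found in 1 window each of Arntl and Clock, against 16.3% of all windows. CCAAT stood 7 times in the window printed above, always on the minus strand, and 11.7% of all windows held it 2 or more times. Npas2, Csnk1e and Fbxl21 windows held none of the 7 motifs.

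Values below are the authors' linear intensities, and changes are differences of log2(intensity + 16) with the standard error of a limma fit to all 9 arrays. This offset understates the changes of dim genes. Adjusted p-values are Benjamini-Hochberg over all 22180 genes. None of the 6 genes passed an adjusted p of 0.05 in any comparison, and 0% of all genes did in each of the 3. By limma, the adjusted p of the 6 ran from 0.870 to 0.988 for ketamine against saline, was 0.9997 for all 6 in sleep deprivation against saline, and ran from 0.455 to 0.829 for ketamine against sleep deprivation. Over the 3 groups at once, the moderated F test called 0 genes at adjusted p 0.05, while 5.8% of all genes, Arntl among them, had an unadjusted p under 0.05.

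**Figure D1:**
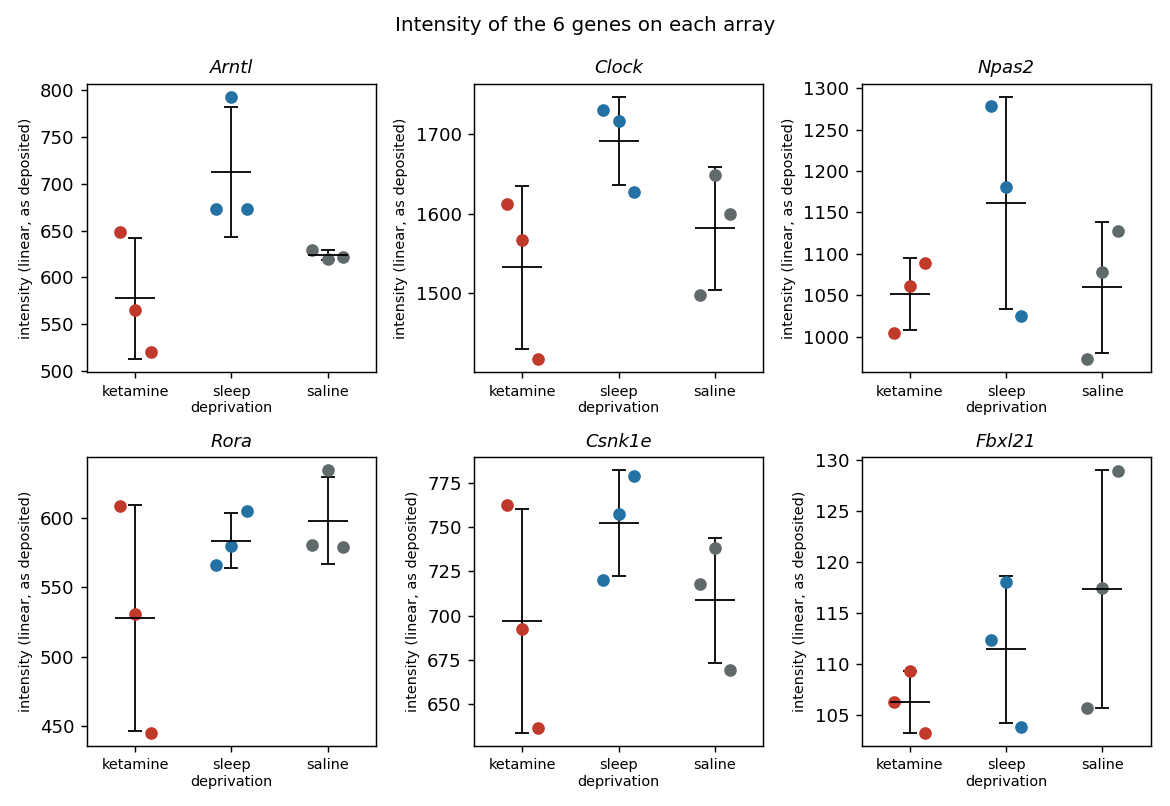
Intensity (vertical axis, linear, as deposited; each panel has its own range and does not start at 0) of the 6 genes on each of the 9 arrays, with ketamine in red, sleep deprivation in blue and saline in grey; points are arrays 1 to 3 from left to right, long bars are means and whiskers are SD (n = 3). Arntl is the gene whose sleep-deprived arrays, at 673 to 793, lie above all 6 other arrays.

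Arntl, the obligate partner in the activating pair, had the largest F statistic of the 6 over the 3 groups, 4.18 with unadjusted p 0.0385 and adjusted p 0.843 in limma. Its intensity was 648, 565 and 520 in ketamine arrays 1 to 3, 673, 793 and 673 in sleep-deprived arrays, and 630, 620 and 622 in saline arrays. The sleep-deprived arrays were all above the saline and the ketamine arrays, while ketamine and saline arrays overlapped because ketamine array 1 stood above all saline arrays. The spread was uneven: the SD was 64.9 for ketamine, 69.4 for sleep deprivation and 5.07 for saline. Mean intensity was 578 after ketamine, 713 after sleep deprivation and 624 after saline (n = 3 each).

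Between ketamine and sleep deprivation Arntl differed by -0.30 ± 0.10 on the log2 scale (95% interval -0.52 to -0.074), which is a ratio of 0.814 (0.697 to 0.950). limma gave it an unadjusted p of 0.0128 and an adjusted p of 0.455. Unadjusted p under 0.05 was reached by 0 of the 6 genes between ketamine and saline, where 4.57% of all genes did, by 0 between sleep deprivation and saline (3.52% of all genes), and by Arntl alone between ketamine and sleep deprivation (9.48% of all genes, with 4.38% lower after ketamine). Groups that do not overlap were found here for Arntl and Clock, 2 of 6 genes and both lower after ketamine, where 10.1% of all genes did so and 5.54% in that direction. The unadjusted p for Arntl was 0.0604 without ketamine array 3 (change -0.23) and 0.0542 without sleep-deprived array 2 (change -0.22).

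Against saline, Arntl stood at 0.18 ± 0.10 after sleep deprivation (95% interval -0.039 to 0.41, unadjusted p 0.0989 in limma, adjusted p 0.9997). It was the 1 gene of the 6 whose sleep-deprived and saline arrays did not overlap, where 7.11% of all genes did not and 3.57% were higher in every sleep-deprived array. Without sleep-deprived array 2, the highest, this change was 0.11. After quantile normalization its unadjusted p was 0.0292 (adjusted p 0.942 in limma), at a change of 0.18. After ketamine it stood at -0.11 ± 0.10 (-0.34 to 0.11), with unadjusted p 0.294 in limma, and at -0.043 without ketamine array 3. The comparisons with saline share the saline arrays, so their values are given side by side and are not independent.

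Arrays differed in how bright their bright genes were, and 5 of the 6 genes were bright, between the 87.2nd and 97.9th percentile of all genes. Relative to the mean of the 9 arrays, the 4436 genes of the brightest 20% had a median deviation of -0.12 in ketamine array 3 and 0.11 in sleep-deprived array 2, with the other 7 arrays between -0.039 and 0.027. Ketamine array 3 held the lowest value of 5 of the 6 genes, Npas2 being the exception, and sleep-deprived array 2 the highest value of Arntl. After quantile normalization, which gives all arrays the same distribution, the Arntl difference between ketamine and sleep deprivation was -0.22 with unadjusted p 0.0107 in limma and adjusted p 0.392. With each array centred on the median of those bright genes it was -0.22 with unadjusted p 0.014. In both settings the sleep-deprived arrays remained above all ketamine and all saline arrays for Arntl.

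**Figure D2:**
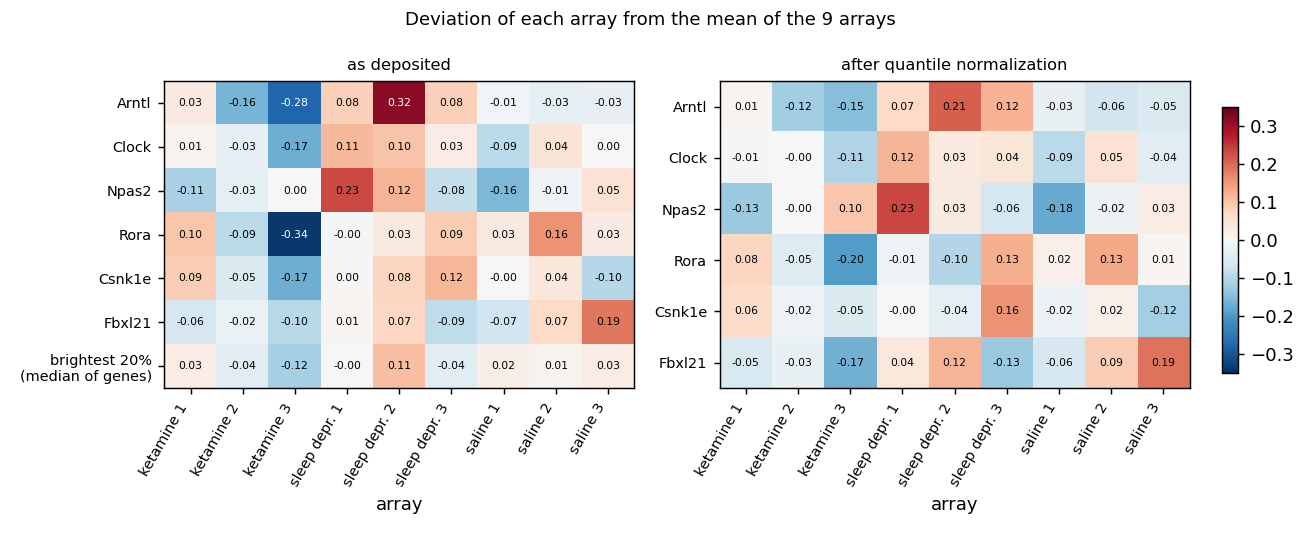
Deviation of each array (columns, ketamine then sleep deprivation then saline) from the mean of the 9 arrays in log2(intensity + 16), as colour and number, for the 6 genes (rows); the left panel shows the values as deposited with the median of the brightest 20% of genes in the last row, and the right panel the same genes after quantile normalization. Ketamine array 3 is at -0.28 for Arntl and -0.34 for Rora as deposited, and the 3 sleep-deprived arrays stay above 0 for Arntl in both panels.

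Endothelial markers lay in the same order as Arntl: all 6 were measured, and their summed intensity was 1269 to 1503 in ketamine arrays, 1593 to 1856 in sleep-deprived arrays and 1413 to 1535 in saline arrays. Striatal markers, 4 of 7 measured, summed to 620 to 633 in ketamine, 639 to 694 in sleep-deprived and 634 to 644 in saline arrays. Every ketamine array was thus below all other arrays in the striatal sum. Microglia markers, 6 of 7 measured, summed to 2011 to 2200, 2183 to 2333 and 2036 to 2246 in the same 3 groups, which overlapped. The part of these 3 lists in the Arntl values was not tested. Astrocyte markers, 7 of 7 measured, summed to 6752 to 7606, 6999.7 to 7957 and 7294 to 7848 in the same 3 groups, which overlapped. Oligodendrocyte markers, 7 of 8 measured, summed to 3606, 5028 and 2811 in ketamine arrays 1 to 3, 2929 to 3645 in sleep-deprived arrays and 3259 to 4016 in saline arrays. Ketamine array 3, which held the lowest value of 5 of the 6 genes, thus also had the lowest sum and ketamine array 2 the highest, and the part of this in the results was not tested.

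Clock, the partner of BMAL1 with histone acetyltransferase activity, varied by a ratio of 1.22 between its lowest and its highest array. Its intensity was 1613, 1567 and 1418 in ketamine arrays, 1730, 1716 and 1628 in sleep-deprived arrays, and 1498, 1649 and 1599 in saline arrays. All sleep-deprived arrays were above all ketamine arrays, by a gap between 1613 and 1628 that is small beside the spread within groups (SD 102 for ketamine and 55.7 for sleep deprivation). The saline arrays overlapped both. The difference of ketamine from sleep deprivation was -0.14 ± 0.09 (-0.34 to 0.053), with unadjusted p 0.140 in limma. The separation of the 2 groups remained after quantile normalization, with ketamine arrays at most 10.66 and sleep-deprived arrays at least 10.7 on the log2 scale. It was lost with arrays centred on the median of all genes or of the brightest 20%. With centring on the brightest 20% the change was -0.069. Against saline, Clock was at -0.046 ± 0.09 after ketamine (-0.24 to 0.15) and at 0.096 ± 0.09 after sleep deprivation (-0.099 to 0.29).

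Npas2, which can stand in for CLOCK in the forebrain, gave an order of arrays of its own. Its intensity was 1005, 1061 and 1089 in ketamine arrays, 1279, 1181 and 1024 in sleep-deprived arrays, and 973, 1078 and 1127 in saline arrays. Sleep-deprived arrays 1 and 2 were above all 6 other arrays, while sleep-deprived array 3 fell inside the range of both ketamine and saline. Mean intensity was 1051 ± 42.9 after ketamine, 1161 ± 128 after sleep deprivation and 1059.5 ± 78.7 after saline (SD, n = 3 each), and the change for ketamine against saline was -0.0090 ± 0.10.

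The difference of Npas2 between sleep deprivation and saline was 0.13 ± 0.10 (-0.094 to 0.35, unadjusted p 0.237 in limma), and between ketamine and sleep deprivation -0.14 ± 0.10 (-0.36 to 0.085, unadjusted p 0.207). Without sleep-deprived array 3 these were 0.21 and -0.22, and the difference from ketamine then had unadjusted p 0.0458 and adjusted p 0.224. In ketamine array 3, where the other 5 genes were lowest, Npas2 deviated by 0.0020 from its mean over the arrays.

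Rora, whose product acts on the elements printed above, had its lowest values after ketamine. Its intensity was 608, 531 and 445 in ketamine arrays, 566, 580 and 605 in sleep-deprived arrays, and 581, 634 and 579 in saline arrays. Ketamine arrays 2 and 3 were below all other arrays, but ketamine array 1 was above all sleep-deprived arrays and above 2 of 3 saline arrays. The ketamine arrays spread more, with an SD of 81.4 against 19.5 for sleep deprivation and 31.3 for saline.

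Rora was at -0.18 ± 0.11 after ketamine against saline (-0.42 to 0.052), the largest change of the 6 in that comparison, with unadjusted p 0.117 and adjusted p 0.870 in limma. None of the 6 genes had groups that did not overlap in this comparison, where 14.4% of all genes did. The size depended on single arrays: without ketamine array 3 the change was -0.070, and without ketamine array 1 it was -0.29 with unadjusted p 0.0207. After quantile normalization it was -0.11. Between ketamine and sleep deprivation Rora was at -0.15 ± 0.11 (-0.39 to 0.085), and between sleep deprivation and saline at -0.033 ± 0.11 (-0.27 to 0.20). Arntl and Rora thus stood on different sides of 0 after sleep deprivation, neither with an unadjusted p under 0.05 in limma.

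Csnk1e, the Period kinase, differed little between groups. Its intensity was 763, 692 and 636 in ketamine arrays, 720, 757 and 779 in sleep-deprived arrays, and 718, 738 and 669 in saline arrays. The groups overlapped in all 3 comparisons. Changes were -0.026 ± 0.10 for ketamine against saline (-0.23 to 0.18), 0.085 ± 0.10 for sleep deprivation against saline (-0.12 to 0.29) and -0.11 ± 0.10 for ketamine against sleep deprivation (-0.31 to 0.094). The ketamine change had the other sign after quantile normalization, at 0.040.

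Fbxl21, the F-box gene, was the dim member, at the 44.7th percentile of all genes, and whether it lay above background was not assessed because the table holds no detection values. Its intensity was 106, 109 and 103 in ketamine arrays, 112, 118 and 104 in sleep-deprived arrays, and 106, 117 and 129 in saline arrays. All ketamine values lay within a narrow range at the low end of the other groups, which overlapped them. It was at -0.12 ± 0.09 after ketamine (-0.33 to 0.082, unadjusted p 0.221 in limma), at -0.063 ± 0.09 after sleep deprivation (-0.27 to 0.14), and at -0.058 ± 0.09 for ketamine against sleep deprivation (-0.26 to 0.15). Saline array 3 was the highest of all, and without it the ketamine change was -0.060 and the sleep-deprivation change -0.0015.

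**Figure D3:**
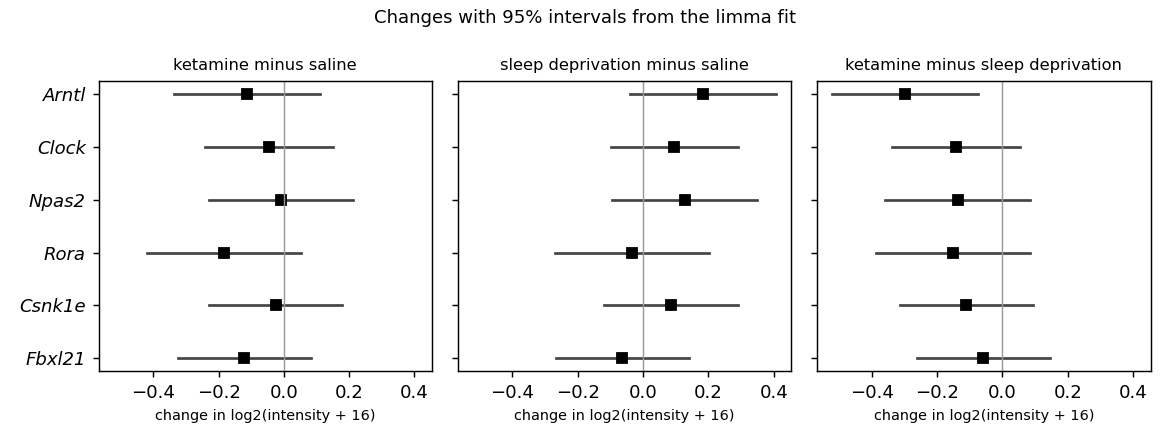
Changes in log2(intensity + 16) (horizontal axis) of the 6 genes (rows) in the 3 comparisons (panels), squares being the limma estimate and lines its 95% interval (n = 3 arrays per group). Only the interval of Arntl for ketamine minus sleep deprivation, -0.52 to -0.074, leaves out 0.

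Taking the 6 side by side, all 6 were lower after ketamine than after sleep deprivation in the mean, with a median of -0.14, beside a median of -0.012 and 53.0% lower among all genes. The median of the 6 was -0.086 after quantile normalization and -0.066 with arrays centred on the bright genes, where 5 of 6 were lower, Fbxl21 being the exception. In the brightest 20% of genes, to which 5 of the 6 belong, 77.6% were lower with a median of -0.064. For ketamine against saline all 6 were lower, median -0.080, against 54.6% of all genes and 79.2% of the brightest 20%. After quantile normalization 4 of 6 were lower in that comparison with a median of -0.026 and, with arrays centred on the bright genes, 3 of 6 with a median of -0.014. For sleep deprivation against saline Arntl, Npas2, Clock and Csnk1e were higher and Fbxl21 and Rora lower, with a median of 0.090 beside -0.0088 for all genes and -0.0019 for the brightest 20%. The order of the 3 group means was sleep deprivation, saline, ketamine for Arntl, Clock, Npas2 and Csnk1e, and saline, sleep deprivation, ketamine for Rora and Fbxl21. No neighbours in these orders differed with an unadjusted p under 0.05 in limma, although the sleep-deprived and saline arrays of Arntl did not overlap.

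The repressor side of the loop was measured through 11 of 13 listed genes, a list that also holds the other ROR genes, and 0 passed adjusted p 0.05 in any comparison. Nr1d1, which encodes REV-ERBα and acts on the same elements as RORα, had 1446.5, 1502 and 1657 in ketamine arrays, 1420, 1353 and 1286 in sleep-deprived arrays, and 1315, 1352 and 1569 in saline arrays. Every ketamine array was thus above every sleep-deprived array, the other way round from Arntl, by a gap between 1420 and 1446.5. That gap is small beside the spread within groups (SD 109 for ketamine and 66.9 for sleep deprivation). Between these groups 10.1% of all genes did not overlap, in either direction. The difference for Nr1d1 was 0.18 ± 0.10, with unadjusted p 0.0949 and adjusted p 0.565 in limma. Nr1d2, its relative, was at 0.028 ± 0.09 in the same comparison.

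Rorb, the ROR gene of sensory and circadian neurons, was at -0.34 ± 0.13 after sleep deprivation against saline (unadjusted p 0.0183 in limma, adjusted p 0.9997) and at 0.24 ± 0.13 for ketamine against sleep deprivation. Among targets of BMAL1 and CLOCK, the repressor gene Ciart was at -0.57 ± 0.11 and Bhlhe41 at -0.33 ± 0.09 after sleep deprivation, with adjusted p 0.527 and 0.9997 in limma. Per1, Per3, Cry1 and Cry2, which encode the core repressors, lay between -0.086 and 0.021 in that comparison and between -0.15 and -0.056 after ketamine. The list's median was -0.098 after ketamine, -0.086 after sleep deprivation and -0.0073 between the treatments, where it was 0.065 after quantile normalization. That normalization gave -0.027 after ketamine, and centring on the bright genes -0.032.

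Relatives of the activators gave no call. Of 11 bHLH-PAS genes, all measured, 0 passed in any comparison and the median was 0.0018 after ketamine and -0.0087 after sleep deprivation, each against saline, and -0.0046 between the treatments. After quantile normalization these 3 medians had the other sign, at -0.028, 0.0057 and 0.052. Arntl2, the paralogue of Arntl, was at -0.18 ± 0.10 both after ketamine and after sleep deprivation, and at -0.0046 ± 0.10 between them. The activity-induced Npas4 was at -0.29 ± 0.11 and -0.36 ± 0.11 against saline, with limma unadjusted p 0.0219 and 0.00644 and adjusted p 0.870 and 0.9997.

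The casein kinase 1 family of Csnk1e gave no call either. All 4 measured relatives were lower after ketamine than after sleep deprivation, with a median of -0.13, and 0 of the 4 passed. In this comparison 53.0% of all genes and 77.6% of the brightest 20% were lower. After quantile normalization 3 of 4 were lower with a median of -0.085, and with arrays centred on the bright genes 4 of 4 with a median of -0.061. Csnk1g2 was at -0.21 ± 0.09 with unadjusted p 0.0383 and adjusted p 0.509 in limma. Its groups did not overlap, which held for 10.1% of all genes in either direction. Csnk1g3 was at -0.14 ± 0.09 and Csnk1a1, a kinase of Period proteins and β-catenin, at -0.13 ± 0.09. Of 20 measured genes of clock protein turnover, 17 were lower after ketamine than after saline (median -0.077) and 16 after sleep deprivation (median -0.044), and 0 passed. Of all genes 54.6% and 53.4% were lower in these 2 comparisons, and of the brightest 20% of genes 79.2% and 50.9%. With arrays centred on the bright genes the counts of the 20 genes were 12 and 16. Their ketamine median was then -0.011, against -0.029 after quantile normalization.

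Among these, the cullin scaffold gene Cul1 was at -0.26 ± 0.09 after ketamine (unadjusted p 0.0164, adjusted p 0.870 in limma). Btrc and Fbxw11, which encode the β-TrCP proteins that recognise phosphorylated Period, were at 0.019 ± 0.10 and -0.18 ± 0.10 in that comparison. Usp2, a deubiquitinase with a circadian rhythm, was at -0.23 ± 0.09 after sleep deprivation. Its ketamine arrays (1003, 1038 and 1088) were all above its sleep-deprived arrays (965, 965 and 837), groups that did not overlap for 10.1% of all genes. Gsk3b, a kinase of several clock proteins, was at -0.11 ± 0.09 after ketamine and -0.17 ± 0.09 after sleep deprivation. Relatives of Fbxl21, 15 of 17 measured, had medians of 0.013 after ketamine, -0.0097 after sleep deprivation and -0.015 between the treatments, and 0 passed. The last median was 0.026 after quantile normalization. Of those relatives Fbxl13 was at 0.23 ± 0.12 after sleep deprivation and Fbxl19 at -0.14 ± 0.09 between ketamine and sleep deprivation. Fbxl13 was dimmer than Fbxl21, at 49.7, 42.7 and 45.7 in sleep-deprived arrays and 41.3, 27.8 and 42.3 in saline arrays. Whether it lay above background was not assessed.

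Coactivators and corepressors that work with the activators were lower after ketamine than after sleep deprivation in 14 of 14 measured genes, median -0.12, with 0 passing. After quantile normalization 11 of the 14 were lower with a median of -0.055, and with arrays centred on the bright genes 11 with a median of -0.044. With arrays centred on the median of all genes it was 14 of 14, with a median of -0.13. Thrap3, which encodes a coactivator of CLOCK and BMAL1, was at -0.27 ± 0.09 between ketamine and sleep deprivation as deposited (unadjusted p 0.0127, adjusted p 0.454 in limma). Nampt, counted in this list although it encodes a rate-limiting enzyme of NAD+ synthesis, was at -0.25 ± 0.13. The 7 measured genes listed as ROR element targets had a median of -0.040 in that comparison, with 2 higher and 5 lower and 0 passing, while centring on the bright genes gave 6 higher and a median of 0.033. Within that list Nfil3 was at -0.067 ± 0.11, Cry1 at -0.061 ± 0.10, Cyp7b1 at -0.16 ± 0.10 and Gys2 at 0.16 ± 0.11, so its members went both ways. The 2 higher genes as deposited, Gys2 and Il17re, were dim, with group means of at most 67.8 and 103. Whether they lay above background was not assessed.

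**Figure D4:**
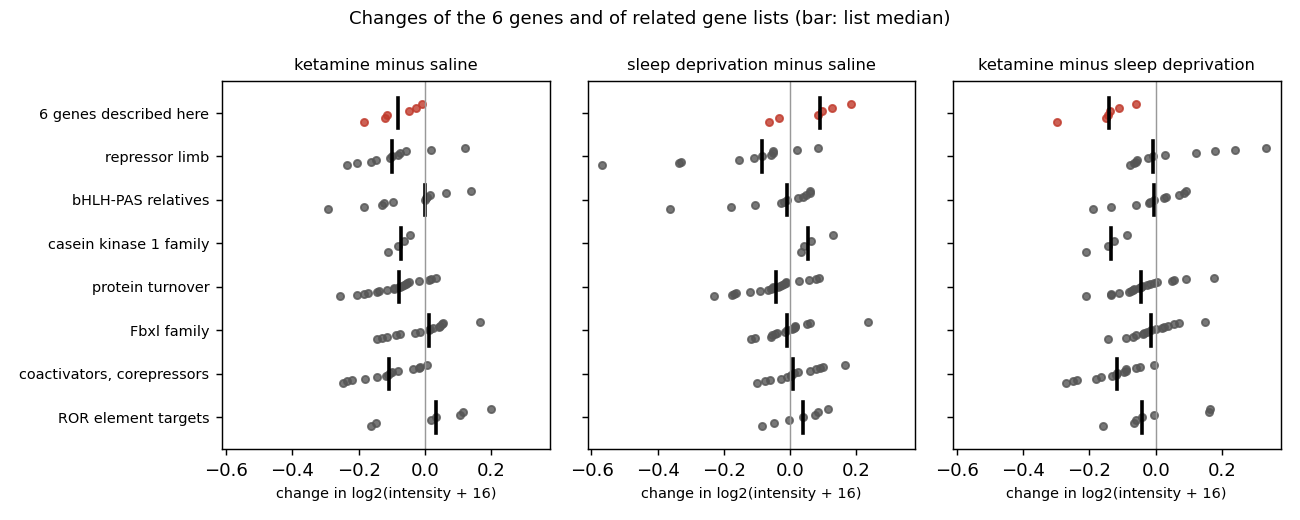
Changes in log2(intensity + 16) (horizontal axis) of the 6 genes (red) and of the genes of 7 related lists (grey, 1 dot per gene, rows), in the 3 comparisons (panels), with a black bar at each median. The medians for ketamine minus sleep deprivation are -0.14 for the 6 genes, -0.13 for the casein kinase 1 family, -0.12 for coactivators and corepressors and -0.0073 for the repressor limb, on the scale as deposited; after quantile normalization they were -0.086, -0.085, -0.055 and 0.065.

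The genes whose array pattern was most like each of the 6 were taken from the 11090 genes at or above the median intensity, by Pearson correlation of log2(intensity + 16) over the 9 arrays, as a description. For Arntl they were Noc2l (0.989), Osbpl3 (0.988) and Faf2 (0.986), and 284 genes reached 0.9 with it. For Clock they were the probe set annotated to Mir598 (0.984), the ryanodine receptor gene Ryr2 (0.974) and Yeats2 (0.974), with 89 genes at 0.9 or above. For Npas2 they were the postsynaptic scaffold gene Shank2 (0.975), Rapgef1 (0.974) and Sipa1l3 (0.971), with 75. For Rora they were the protocadherin gene Pcdh7 (0.981), the non-coding Oip5os1 (0.973) and Nufip2 (0.948), with 52. For Csnk1e they were Gm26504 (0.972), Snord110 (0.964) and Snord49b (0.956), with 29, and for Fbxl21 Lrfn1 (0.940), Gatad1 (0.928) and Fabp7 (0.922), with 6. All these points share the same 9 arrays and the brightness differences between them.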

How the data were processed

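The deposited table holds 1 linear intensity per probe set and array for 41345 probe sets, made by the authors with Affymetrix Expression Console 1.1.1 and PLIER 2.0, per the submitters' processing notes. How background was corrected and arrays were scaled is not given in the sources used here, nor is a genome build. The median of an array was 97.7 to 106.2, and within groups arrays correlated at 0.986 to 0.995 across genes. The number of arrays limits the precision, and the median standard error of a change was 0.11. The scale of log2(intensity + 16) was computed here from the deposited intensities. Of the probe sets 23521 had 1 gene symbol, 1814 several and 16010 none, 23328 of the first were updated through gene identifiers to RefSeq symbols, and the brightest probe set of a gene was kept. limma 3.58.1 in R 4.3.3 was fitted to all 9 arrays without a block and tested on simulated data, with 3 contrasts, a moderated F test and Benjamini-Hochberg adjustment. Where nothing says that samples came from separate animals, p-values measure only the spread between these samples; here the titles call them biological. Named were the 6 genes, a fixed set of relatives, the 2 genes of each list with the smallest F test p, and the 3 most alike genes. Genes and lists were chosen with earlier results of these data known. Some listed genes were not analysed here. Sequences and motif windows are from RefSeq, build GRCm38.p6. Alternatives are given in the closing section.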

Additional observations from a re-analysis of the deposited data

How the results depend on the processing

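In 378 recomputed changes of the 6 genes (18 changes under 21 settings) none passed adjusted p 0.05, 365 kept their direction and 13 did not, all of them small. The 365 include settings that cannot move a change and alter only its p-value. These are limma-trend, the replicate block, fitting only the 2 groups compared, leaving out the dimmest genes, and leaving out an array of the third group. Averaging or testing all probe sets cannot move it either, because each of the 6 genes had 1 probe set. The smallest adjusted p, 0.127, was that of Arntl between ketamine and sleep deprivation with array weights, and over its settings that change ran from -0.38 to -0.22. For ketamine against saline, quantile normalization gave 0.040 for Csnk1e and 0.045 for Npas2, and centring on the brightest 20% of genes, chosen after seeing the data, gave 0.020 for Clock, 0.040 for Csnk1e and 0.057 for Npas2, and 0.015 for Fbxl21 between ketamine and sleep deprivation. With each array left out in turn the changes for ketamine against saline ran from -0.085 to 0.0081 for Clock, from -0.091 to 0.037 for Csnk1e and from -0.068 to 0.036 for Npas2, and Rora ran from -0.058 to 0.0087 for sleep deprivation against saline. Over all genes the count past adjusted p 0.05 was 0 in each comparison. It was 1439 for ketamine against saline with array weights, where ketamine array 2 took a weight of 7.92. For ketamine against sleep deprivation it was 14 with offset 64, 5 with the dimmest 33.3% left out, 15 with limma-trend, 42 with array weights, and 0 to 214 with 1 array left out, 214 being without sleep-deprived array 3. For sleep deprivation against saline it was 1 with median centring, 3 with limma-trend and 0 to 4 with 1 array left out, 4 being without sleep-deprived array 2. The cause was not tested. Replicate numbers did not pair the arrays: deviations of same-numbered arrays correlated from -0.20 to 0.44 across genes. With the replicate block 0 genes passed in each comparison and the Arntl difference between ketamine and sleep deprivation had adjusted p 0.36 in limma. With 3 arrays a group, precision is low throughout.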

Other observations

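Across genes, deviations from the group means correlated between arrays of different groups. The correlation was 0.536 between ketamine array 1 and sleep-deprived array 2, 0.444 between ketamine array 3 and sleep-deprived array 3, and -0.514 between ketamine array 3 and sleep-deprived array 2. Between ketamine and saline arrays it lay between -0.105 and 0.117. Genes within an array are not independent replicates, and these values carry no test.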
